A study of Mus musculus with 22 samples.

Results

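The heat shock genes Hsph1, Hsp90aa1, Hsp90ab1, Hspa8, Dnaja1, Dnajb1, Hspd1 and Hspe1, and the cold-inducible genes Cirbp and Rbm3, were followed through the day in mouse kidney with and without the clock gene Clock. The 10 genes were taken from a list of names, chosen with earlier results of these data known. Each was read from its brightest probe set that the array annotation gives to a single gene. 9 of the 10 could be measured, among 13967 genes tested in all. Hsp90ab1 had no probe set under its name in the annotation used here, which left 7 heat shock genes and 2 cold-inducible genes.

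RNA came from whole kidney, given as left kidney in another label, of wild-type mice (WT) and of Clock-deficient mice labelled clock(-/-) (KO). The KO colony was bred from heterozygous pairs, and the labels give no sex, age or strain background. All animals had 2 weeks of 12 h light and 12 h dark, followed by 30 h of constant darkness. Kidneys were collected every 4 h from ZT0 to ZT20, where ZT0 is the former time of lights on and ZT12 of lights off, so that ZT12 onward is the subjective night. Each of the 22 Affymetrix arrays held RNA pooled from 2 or 3 mice, with 11 arrays per genotype. Each group had 2 pools, numbered 1 and 2, except WT at ZT8 and KO at ZT16, which had 1. The labels record no body temperature.

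Array medians lay between 5.88 and 6.01 log2 units, and arrays correlated with each other at r of 0.98 to 0.994. Kidney markers were bright, with Slc34a1 of the proximal tubule at a mean of 13.14 and Umod of the thick ascending limb at 13.05. None of 3 adrenal markers passed the brightness filter. The Clock probe set ranged from 8.47 to 9.16 in WT and from 8.73 to 9.11 in KO, with a mean difference of 0.13 (limma, adjusted p = 0.0398). The sources used here do not say whether it covers the deleted part, so it does not check the labels. Arntl, the partner of Clock, was 1.01 log2 higher on average in KO (limma, adjusted p = 2.38e-06). In a whole organ, fewer cells of a type and less RNA per cell cannot be told apart.

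Heat shock proteins are chaperones that help other proteins fold and keep damaged ones from clumping. When cells warm, heat shock factor HSF1 binds repeated short units in the promoters of these genes and raises their transcription. Cirbp and Rbm3 encode RNA-binding proteins whose transcripts rise when mammalian cells are cooled mildly. Mice are active by night and warmer then than by day, and the daily temperature cycle is known to drive heat-induced and cold-induced transcripts in opposite directions in peripheral organs.

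The sequences below show where the members carry the units that heat shock factor and cold response are known for, which the values are set beside later. They are RefSeq sequences of the mouse build GRCm38.p6, 5′ to 3′ on the strand of the gene, with the matched letters in capitals. The stretch shared by Hspe1 and Hspd1 is on the strand of Hspe1, opposite to that of Hspd1. The RefSeq table used held the promoters of 6 of the 10 genes. The search covered the 250 bases before each annotated start on both strands, for a pair of facing heat shock units (GAANNTTC or TTCNNGAA), for 3 or more such units in a row (a run that contains such pairs), for the E-box CACGTG that CLOCK and ARNTL bind, and for the mild cold response element of Cirbp, TCCCCGCC.
Hsph1, chr5:149636351-149636380, minus strand: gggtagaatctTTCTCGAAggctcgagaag
Dnaja1, chr4:40722333-40722362, plus strand: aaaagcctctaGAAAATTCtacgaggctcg
Hspe1 and Hspd1, chr1:55088053-55088082, plus strand: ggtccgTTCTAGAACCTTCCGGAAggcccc
Cirbp, chr10:80167589-80167618, plus strand: ctgTCCCCGCCtcctagtcgctagcgggcg

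All 4 stretches lie upstream of an annotated start of the gene. For Hsph1, Hspd1 and Cirbp this is an inner start, and the stretch lies inside the annotated gene span. The facing pair of units in Hsph1 and Dnaja1 is present in 12.8% of all 32851 promoter windows. Hspd1 and Hspe1 start head to head, with gene spans that overlap by 96 bases, and share an array of alternating units, a form present in 0.466% of windows. The cold response octamer of Cirbp was in 4.64% of windows and also, on the other strand, in windows of Dnaja1. CACGTG, in 6.02% of windows, was found in a window of Hsph1 and of Hspd1. None of these letters was found in the windows of Dnajb1. A match of letters is not evidence of binding.

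In WT kidney, 5 of the 9 measured genes had a 24 h rhythm. Cirbp and Rbm3 were high in the subjective day, whereas Hsph1, Hsp90aa1 and Dnaja1 were high in the subjective night. The rhythm test fitted a mean and a 24 h wave to each genotype in limma, with Benjamini-Hochberg adjustment over all 13967 genes and a threshold of 0.05. Of all genes, 6.48% passed it in WT. The members were chosen with earlier results of these data known, so their count beside this share is a description only. The amplitude is the height of the fitted wave above its mean, in log2 units, so that the day's swing is 2 amplitudes.

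**Figure D1:**
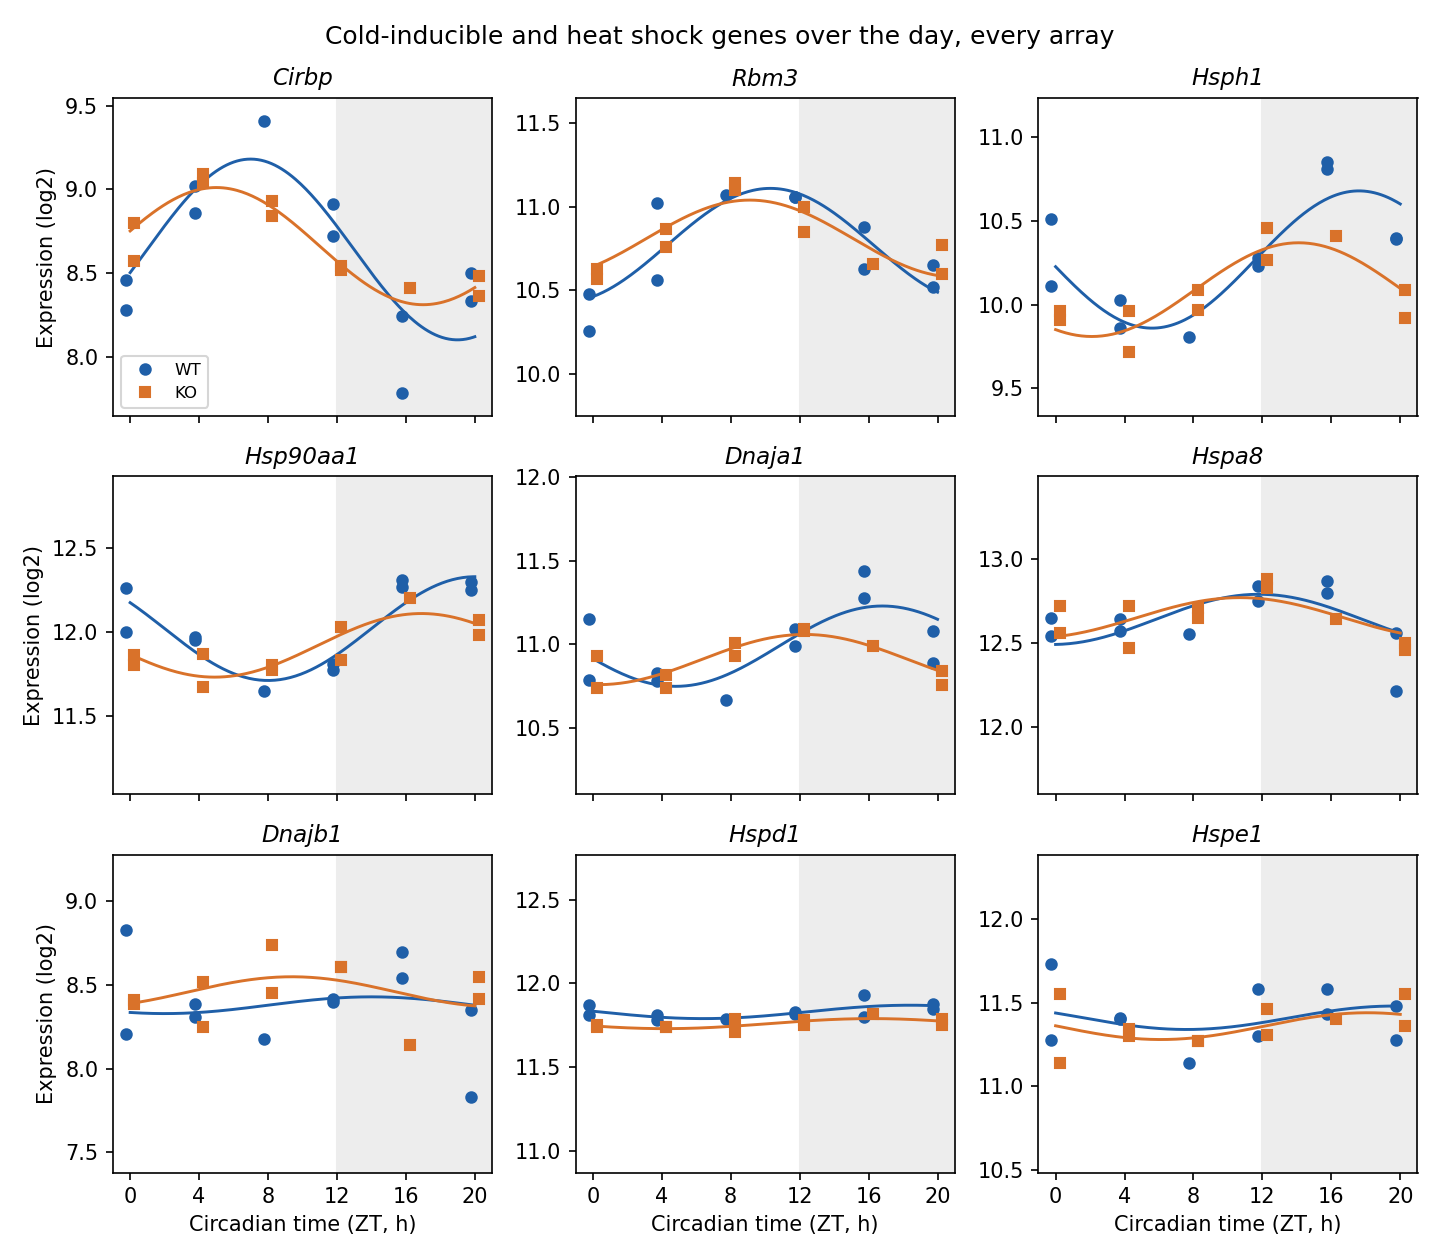
Expression (log2) of the 9 measured genes against circadian time in hours, with 1 point per array (blue circles WT, orange squares KO), the fitted 24 h waves as lines and the subjective night in grey. Every panel spans the same height, and each has its own level. Cirbp runs from 9.41 at ZT8 to 7.78 at ZT16 in WT, where Hsph1 runs from 9.81 to 10.85, while Hspd1 lies nearly flat.

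Cirbp, which binds RNA and takes its name from its induction by cold, had the widest swing of the measured genes. In WT it read 8.28 and 8.46 (ZT0), 8.86 and 9.02 (ZT4), 9.41 (ZT8), 8.91 and 8.72 (ZT12), 7.78 and 8.24 (ZT16), and 8.33 and 8.50 (ZT20). All 5 arrays from ZT4 to ZT12 were above all 6 arrays from ZT16 to ZT0. The group mean at ZT8 was 2.64-fold that at ZT16, with 1 pool behind the former. Neighbouring means of 8.94 (ZT4) and 8.81 (ZT12), and of 8.41 (ZT20) and 8.37 (ZT0), lay closer than the SD of 0.14 between pools of a group. The fitted amplitude was 0.54 ± 0.08 (SE) with a peak at ZT6.99 ± 0.534 h (limma, adjusted p = 0.00119). Without the single ZT8 pool the amplitude was 0.458, with an adjusted p of 0.0132 in limma.

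Rbm3, a related cold-inducible RNA-binding protein, peaked later in WT than Cirbp. It read 10.26 and 10.48 (ZT0), 10.56 and 11.02 (ZT4), 11.07 (ZT8), 11.06 and 11.06 (ZT12), 10.63 and 10.88 (ZT16), and 10.52 and 10.65 (ZT20). The 3 arrays of ZT8 and ZT12 were the highest, and one ZT4 pool came close to them. ZT0 was the lowest group, and the highest group mean was 1.63-fold above it. The amplitude was 0.34 ± 0.06 with a peak at ZT10.3 ± 0.628 h (limma, adjusted p = 0.00318). The rhythm of Rbm3 passed the 24 h wave test but not a test of a free level at each time, where limma gave an adjusted p of 0.089.

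Hsph1, the large HSP110 chaperone that exchanges nucleotide on HSP70, had the widest swing of the heat shock genes. In WT it read 10.51 and 10.11 (ZT0), 9.86 and 10.03 (ZT4), 9.81 (ZT8), 10.28 and 10.23 (ZT12), 10.81 and 10.85 (ZT16), and 10.40 and 10.39 (ZT20). Both ZT16 pools were above every other WT array, and the 3 arrays of ZT4 and ZT8 were below all the rest. The group means differed 2.02-fold between ZT16 and ZT8. The amplitude was 0.41 ± 0.06, with a peak at ZT17.6 ± 0.589 h (limma, adjusted p = 0.00176).

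Hsp90aa1, the inducible cytosolic HSP90 that completes the folding of kinases and steroid receptors, stayed high to the end of the night. WT values were 12.26 and 12.00 (ZT0), 11.97 and 11.95 (ZT4), 11.65 (ZT8), 11.81 and 11.77 (ZT12), 12.27 and 12.31 (ZT16), and 12.30 and 12.25 (ZT20). The 4 arrays of ZT16 and ZT20 and one ZT0 pool were the highest, and the 3 arrays of ZT8 and ZT12 the lowest. Its amplitude was 0.31 ± 0.05, with a peak at ZT20.0 ± 0.529 h (limma, adjusted p = 0.00126).

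Dnaja1, a J-domain co-chaperone that passes substrates to HSP70, had the smallest amplitude of the rhythmic members. WT values were 11.15 and 10.79 (ZT0), 10.78 and 10.83 (ZT4), 10.67 (ZT8), 11.09 and 10.99 (ZT12), 11.28 and 11.44 (ZT16), and 11.08 and 10.89 (ZT20). Both ZT16 pools exceeded all other WT arrays. The amplitude was 0.24 ± 0.05 with a peak at ZT16.8 ± 0.881 h (limma, adjusted p = 0.026). Its call was lost without WT ZT8 pool 1 (limma, adjusted p = 0.0628), without WT ZT16 pool 1 (0.0725) and without WT ZT16 pool 2 (0.0854). Like Rbm3, Dnaja1 did not pass the test of a free level at each time (limma, adjusted p = 0.101). Its second probe set had a WT amplitude of 0.26 and did not pass the rhythm test (limma, adjusted p = 0.156).

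The remaining 4 heat shock genes did not pass the rhythm test in WT. Hspa8, the constitutive cytosolic HSP70, ranged from 12.21 to 12.87 over the 11 WT arrays, with a median of 12.64, an amplitude of 0.15 ± 0.06 and a limma adjusted p of 0.225. Its fitted peak, ZT11.8 ± 1.53 h, lay nearer to that of Rbm3 than to that of Hsph1. Its highest WT group, however, was ZT16 (12.83), as for Hsph1. The other probe sets of Hspa8 peaked at ZT13.3 and did not pass in WT (limma, adjusted p = 0.1 and 0.128). Their unadjusted p-values in limma were 0.0106 and 0.0163. Dnajb1, the J-domain partner of HSP70 that is strongly heat-induced, ranged from 7.83 to 8.83 with a median of 8.39. The pools of one time differed widely for Dnajb1, at 8.83 and 8.21 (ZT0), and its amplitude was 0.05 ± 0.09 (limma, adjusted p = 0.923).

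Hspd1 and Hspe1 encode HSP60 and HSP10, the chaperonin and its lid, which act in the mitochondrial matrix and not in the cytosol. Hspd1 ranged from 11.78 to 11.93 in WT with a median of 11.82, an amplitude of 0.04 ± 0.03 and a limma adjusted p of 0.509. Hspe1 ranged from 11.14 to 11.73 with a median of 11.41, an amplitude of 0.07 ± 0.06 and a limma adjusted p of 0.716. This pair, whose shared promoter holds the longest run of heat shock units above, had small amplitudes. In WT the second probe sets had amplitudes of 0.09 (Hspd1) and 0.11 (Hspe1). Hsph1 and Dnaja1, with a single facing pair of units printed, had larger ones. A link between units and amplitude was not tested, and only 6 of the 10 promoters could be searched.

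In KO kidney the same 5 genes, read from their brightest probe sets, had waves of 0.603 to 0.682 times the WT amplitude. None passed the adjusted threshold. All 5 had an unadjusted p under 0.05 in limma, with adjusted p-values of 0.0523 to 0.311. Of all genes, 2.46% passed in KO and 13.8% had an unadjusted p under 0.05, as did 53.4% of the genes rhythmic in WT. The count of members was 4 with trended and robust eBayes and 4 with array weights (Hsph1, Hsp90aa1, Cirbp and Rbm3 in both), so that the KO result lies at the threshold and no absence of rhythm is shown.

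Cirbp in KO read 8.80 and 8.57 (ZT0), 9.09 and 9.04 (ZT4), 8.84 and 8.93 (ZT8), 8.54 and 8.52 (ZT12), 8.41 (ZT16), and 8.48 and 8.36 (ZT20). The 4 arrays of ZT4 and ZT8 were above all others. The amplitude was 0.35 ± 0.08 with a peak at ZT5.00 ± 0.819 h (limma, adjusted p = 0.0523). Both extremes of WT were missing: the KO arrays spanned 8.36 to 9.09, against 7.78 to 9.41 in WT. In pool 2 arrays alone, which lack WT ZT8 and KO ZT16, the Cirbp amplitude was 0.372 in WT and 0.402 in KO, so its smaller KO wave was not seen there.

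Rbm3 in KO read 10.63 and 10.57 (ZT0), 10.76 and 10.87 (ZT4), 11.10 and 11.14 (ZT8), 10.85 and 11 (ZT12), 10.66 (ZT16), and 10.60 and 10.77 (ZT20). Its 2 highest arrays were those of ZT8. The amplitude was 0.23 ± 0.05 with a peak at ZT9.10 ± 0.997 h (limma, adjusted p = 0.0596).

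Hsph1 in KO read 9.91 and 9.96 (ZT0), 9.72 and 9.96 (ZT4), 9.97 and 10.09 (ZT8), 10.27 and 10.46 (ZT12), 10.41 (ZT16), and 9.92 and 10.09 (ZT20). The 3 arrays of ZT12 and ZT16 were the highest, and ZT20 was back among the low groups, where in WT it was the second highest. The amplitude was 0.28 ± 0.07 with a peak at ZT14.1 ± 0.854 h (limma, adjusted p = 0.0552).

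Hsp90aa1 in KO read 11.86 and 11.80 (ZT0), 11.87 and 11.67 (ZT4), 11.80 and 11.77 (ZT8), 12.03 and 11.83 (ZT12), 12.20 (ZT16), and 12.07 and 11.98 (ZT20). Its single ZT16 array was the highest and ZT0 was low, whereas in WT ZT0 was still among the higher groups. The amplitude was 0.19 ± 0.05 with a peak at ZT16.9 ± 0.882 h (limma, adjusted p = 0.0801).

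Dnaja1 in KO ranged from 10.74 to 11.09 with a median of 10.93, and its highest group was ZT12 and not ZT16. The amplitude was 0.15 ± 0.05 with a peak at ZT12.3 ± 1.42 h (limma, adjusted p = 0.311). Hspa8 (12.46 to 12.88), Dnajb1 (8.14 to 8.74), Hspd1 (11.71 to 11.82) and Hspe1 (11.14 to 11.55) had KO amplitudes of 0.12, 0.09, 0.03 and 0.08 with limma adjusted p-values of 0.493, 0.884, 0.865 and 0.829.

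One KO array stood apart in fat markers. KO ZT8 pool 1 had a summed linear level of Adipoq, Plin1 and Ucp1 of 647, against at most 263 on any other array, with Ucp1, the uncoupling protein of brown fat, at 8.34 on the log2 scale. Without this array the KO amplitudes were 0.361 for Cirbp and 0.277 for Hsph1, and the counts of rhythmic members were still 5 in WT and 0 in KO.

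**Figure D2:**
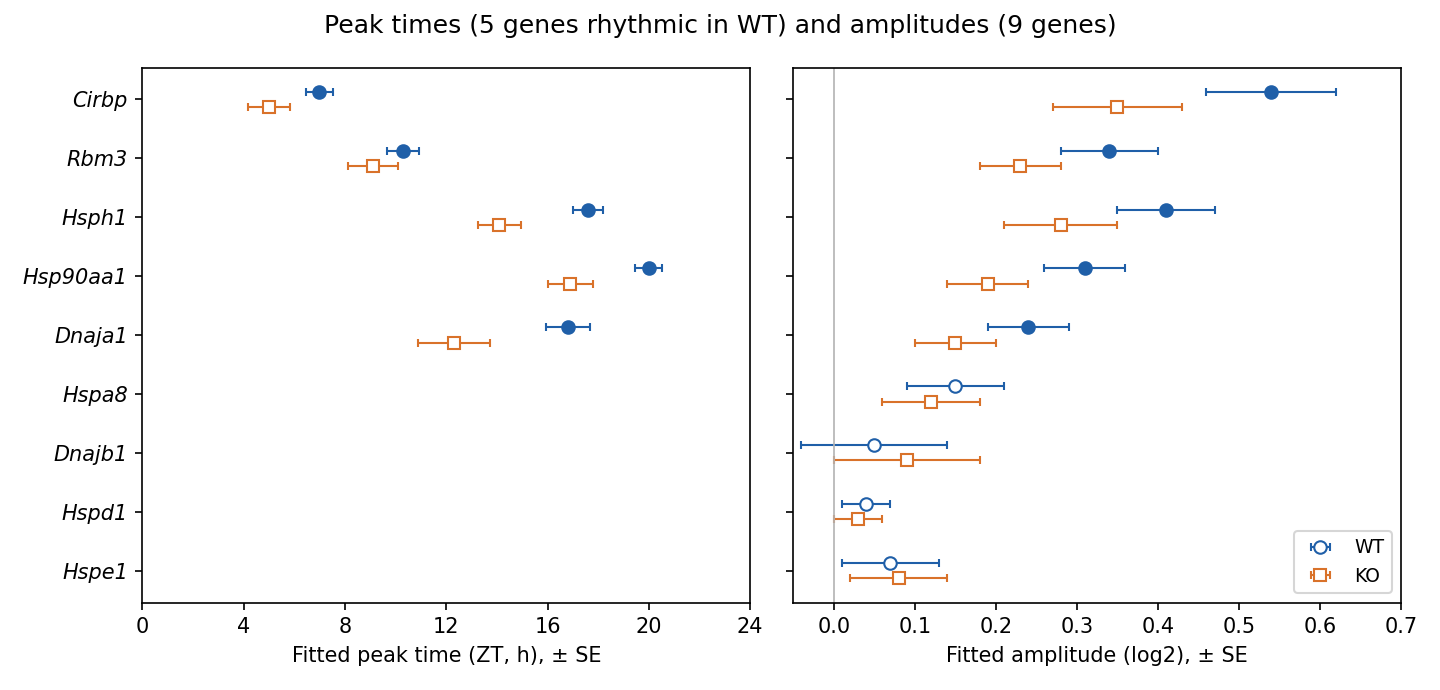
Fitted peak time in hours (left, for the 5 genes rhythmic in WT) and fitted amplitude in log2 units (right, for all 9 measured genes), with bars of 1 SE, WT as blue circles and KO as orange squares. Filled symbols passed the adjusted threshold. In each of the 5 genes the KO peak lies earlier, by 1.16 to 4.48 h, and the KO amplitude is smaller.

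The fitted peaks of the 5 rhythmic members came earlier in KO. The shift was 3.47 ± 1.04 h for Hsph1, 3.18 ± 1.03 h for Hsp90aa1 and 4.48 ± 1.67 h for Dnaja1, and 1.99 ± 0.978 h for Cirbp and 1.16 ± 1.18 h for Rbm3. The test of the rhythm difference itself, on wave size and timing together, was passed by 0 of the 9 members. 4 members had an unadjusted p under 0.05 in limma, with adjusted p-values over the 9 of 0.443 to 0.983, and trended and robust eBayes also called none. Of all genes, 0.043% passed this test and 7.78% had an unadjusted p under 0.05. All 4 were among the 5 members rhythmic in WT, and of all genes rhythmic in WT 45.4% had such a p.

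The direction was shared with most rhythmic genes of the kidney. Of the 905 genes called in WT, 82.9% peaked earlier in KO, with a median shift of -2.15 h against -3.18 h for the 5 members. The KO amplitude was smaller in 93.3% of them, and their median ratio of KO to WT was 0.546, against 0.652 for the 5 members. Genes selected for passing in WT have amplitudes that tend to be lower in the other genotype by that selection alone. Clock genes read in the same arrays moved the same way, with Per2 at ZT14.2 in WT and ZT12.3 in KO, Dbp at ZT9.95 and ZT8.93, and Arntl at ZT22.2 and ZT19.0.

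The mean level over the day did not differ between genotypes past the threshold for any of the 9 members in limma, where 9.14% of all genes passed. 3 members (33.3%) had an unadjusted p under 0.05, near the 25.1% of all genes. Each was lower in KO: Hsph1 by a difference of -0.18 ± 0.06 (limma, adjusted p = 0.084), Hsp90aa1 by -0.11 ± 0.05 (0.15) and Hspd1 by -0.07 ± 0.03 (0.0982). With trended and robust eBayes Hspd1 alone was called, at a limma adjusted p of 0.0451. The Hspd1 values overlapped between genotypes, with WT from 11.78 and KO up to 11.82. Cirbp and Rbm3 differed in mean by 0.02 ± 0.08 and 0.04 ± 0.06.

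At single times, 0 of 54 tests of a member at a time passed the adjusted threshold in limma, while 12 (22.2%) reached an unadjusted p below 0.05, against 7.78% of all pairs of a gene and a time. The share of all genes called was 0.0286% at ZT0, 0.00716% at ZT4, 0.0286% at ZT8, 0.122% at ZT12, 0.0143% at ZT16 and 1.75% at ZT20. Cirbp differed by -0.52 ± 0.16 at ZT8 (limma, adjusted p = 0.73) and by 0.39 ± 0.16 at ZT16 (0.634), KO minus WT, each time with 1 pool on one side. Hsph1 differed by -0.42 ± 0.15 (ZT16), -0.39 ± 0.12 (ZT20) and -0.38 ± 0.12 (ZT0), with limma adjusted p-values of 0.519, 0.125 and 0.794. Both KO pools of Hsph1 lay below both WT pools at ZT20 and at ZT0. Trended and robust eBayes also called none of the 54.

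Heat shock and cold-inducible genes ran in near opposite phase for some pairs and not for others. The mean of the 7 heat shock genes peaked at ZT17.6 in WT and the mean of Cirbp and Rbm3 at ZT8.23, which is 9.34 ± 1.39 h apart, where exact antiphase would be 12 h. In KO the same means peaked at ZT13.9 and ZT6.56, 7.31 ± 0.893 h apart. The mean of the 7 includes the heat shock genes that did not pass the rhythm test in WT. Its amplitude was 0.15 in WT and 0.1 in KO. The gaps differed by 2.03 ± 1.65 h between genotypes, which is not much beyond its error.

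By pair, Hsp90aa1 and Cirbp came closest to opposite phase among the rhythmic members, with peaks 11 h apart in WT and 11.9 h in KO. Hsph1 and Cirbp were 10.6 h apart in WT and 9.13 h in KO. Rbm3 was nearer to the heat shock genes, at 7.35 h from Hsph1 in WT and 5.03 h in KO. Rbm3, with its later peak, was thus farther from antiphase than Cirbp in each of these pairs.

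The same arrays were also read without any fitted wave, array by array. Over the 11 WT arrays Hsph1 and Cirbp had Pearson's r = -0.87 and Spearman's rho = -0.88 (two-sided permutation test, p = 0.00044, adjusted p = 0.0098), and r = -0.81 without the 2 arrays farthest from the median of Hsph1. Hsp90aa1 and Cirbp had r = -0.85 and rho = -0.88 (permutation test, p = 7e-04, adjusted p = 0.0098), and r = -0.76 without 2 arrays. These 2 were the only ones past the threshold among 28 pairs, 14 per genotype, adjusted together. Arrays of one time share that time, so they are not fully independent. The permutations moved arrays freely between times. The test therefore does not separate opposition within a time from the course over the day that the waves describe.

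Without the single WT ZT8 pool none of the 28 pairs passed, with r = -0.83 for Hsph1 and -0.78 for Hsp90aa1 against Cirbp, at permutation adjusted p-values of 0.105 and 0.119. In WT, 13 of 14 pairs had r below 0, from -0.87 to 0.33. In KO, 8 of 14 did, from -0.71 to 0.58, and none passed. In KO Hsph1 and Cirbp had r = -0.62 (rho = -0.58) and Hsp90aa1 and Cirbp r = -0.71 (rho = -0.67), with permutation p-values of 0.0447 and 0.0158 before adjustment. The difference between genotypes in these correlations was not tested.

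**Figure D3:**
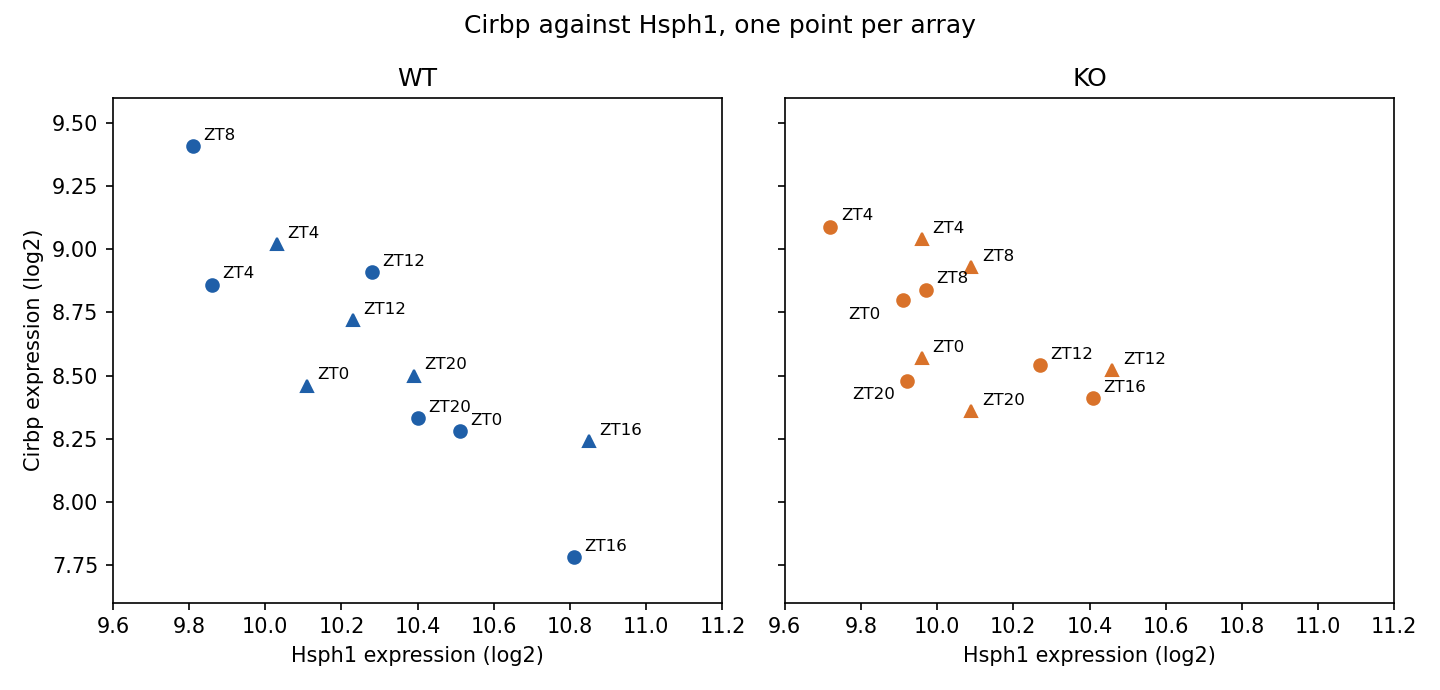
Cirbp against Hsph1 (both log2) with 1 point per array, WT left and KO right, circles for pool 1 and triangles for pool 2, each labelled with its time. WT arrays run from ZT8 (Hsph1 9.81, Cirbp 9.41) down to ZT16, and KO arrays fill a narrower range, from 8.36 to 9.09 for Cirbp.

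Other heat shock and chaperone genes were counted from a list of 46 names, of which 44 were measured. This list too was chosen with earlier results of these data known, so its shares beside all genes are descriptions only. The list holds other members of the HSP70 and J-domain families, small heat shock proteins, co-chaperones, the cytosolic chaperonin TRiC and heat shock factors. Of the 44, 9 (20.5%) had a rhythm in WT, against 6.48% of all genes, and all 9 peaked between ZT16.2 and ZT20.7. In a window of ZT16 to ZT21, chosen after these values were seen, lay 8.95% of the peaks of all 905 rhythmic genes. The median WT amplitude over the 44 was 0.0760, against 0.0874 over all genes, so the median wave of the list was no larger. Without WT ZT8 pool 1 the count was 5.

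Among the co-chaperones on the list some passed and others did not. Chordc1, which binds HSP90, had the largest amplitude, 0.35 ± 0.08 with a peak at ZT18.2. Fkbp4, an immunophilin of steroid receptor complexes, had 0.27 ± 0.04 at ZT20.7. Stip1, which links HSP70 to HSP90, had 0.25 ± 0.05 at ZT18.5, and Ahsa1, which activates the HSP90 ATPase, had 0.23 ± 0.05 at ZT19.3. Ptges3, Cdc37 and St13, further co-chaperones of HSP90 or HSP70 named after their values were seen, did not pass in WT, with limma adjusted p-values of 0.572, 0.567 and 0.328.

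The other 4 named by amplitude were chaperones of different classes. Hspa4l, an HSP110 relative of Hsph1, had an amplitude of 0.29 ± 0.04 at ZT19.8. Hspb1, the small heat shock protein HSP27, had 0.28 ± 0.06 at ZT18.4, and Serpinh1, the collagen chaperone HSP47, had 0.28 ± 0.06 at ZT19.6. Dnaja4, a J-domain protein, had 0.21 ± 0.05 at ZT16.2. Hspa1a, the strongly inducible HSP70, did not pass in WT (limma, adjusted p = 0.684), and neither did any of the 8 TRiC subunits.

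Chordc1 was high and low at the same times as Hsph1 in WT, where it read 8.88 and 8.61 (ZT0), 8.28 and 8.53 (ZT4), 7.97 (ZT8), 8.74 and 8.53 (ZT12), 8.97 and 9.20 (ZT16), and 8.79 and 8.58 (ZT20). Both ZT16 pools were above all other WT arrays and the ZT8 pool was below them. In KO its arrays ran from 8.17 to 8.92, with the highest at ZT16.

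In KO, 3 of the 44 genes had a rhythm, each of them also called in WT: Serpinh1 (amplitude 0.27, ZT19.4), Stip1 (0.23, ZT16.0) and Fkbp4 (0.18, ZT18.2), with limma adjusted p-values of 0.0185, 0.0252 and 0.0208. The share called in KO was 2.46% of all genes and 17.5% of all genes rhythmic in WT. All 9 genes rhythmic in WT peaked earlier in KO and had a smaller amplitude there, as did 82.9% and 93.3% of all 905 genes rhythmic in WT. None passed the test of the rhythm difference in limma, with 4 of the 44 (9.09%) at an unadjusted p under 0.05, near the 7.78% of all genes. The mean level was higher in KO for Hspa2 by 0.23 ± 0.06 (limma, adjusted p = 0.0115) and for Hspb8 by 0.19 ± 0.06 (0.0473), and differed by -0.20 ± 0.05 for Dnaja4 (0.021). These 3 of the 44 stand beside 9.14% of all genes with a called mean difference.

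**Figure D4:**
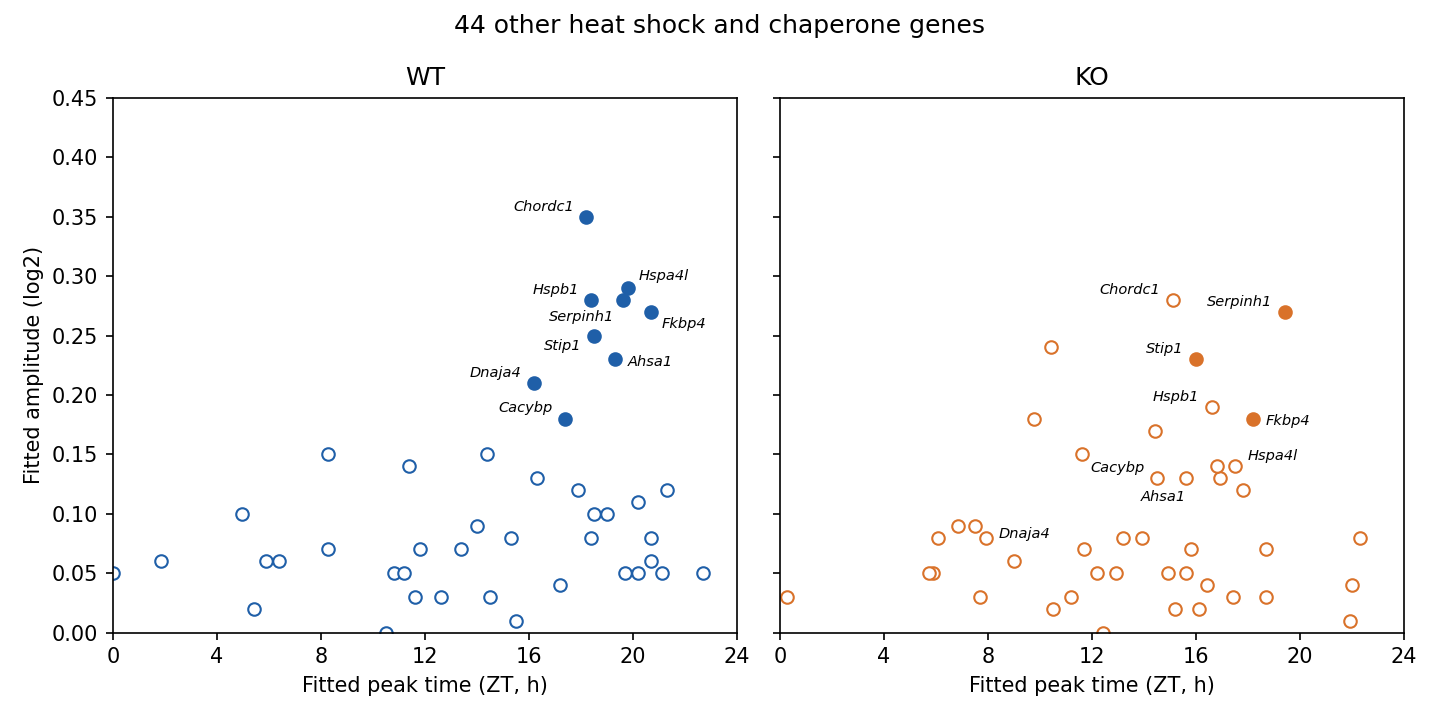
Fitted amplitude (log2) against fitted peak time in hours for the 44 other heat shock and chaperone genes, WT left and KO right, with 1 point per gene and filled points past the adjusted threshold. The 9 genes called in WT are named in both panels; in WT they lie between ZT16.2 and ZT20.7, and 3 of them are filled in KO.

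Cold shock domain genes and immediate early genes were counted in the same fits. Of 4 measured genes with a cold shock domain or a related name, none was rhythmic in either genotype by limma, even at an unadjusted p under 0.05. Of all 13967 genes, 3163 had such a p in WT and 13.8% in KO. With only 4 genes, a count of 0 says little beside these shares. Of 11 immediate early genes, which respond within minutes to handling, none was rhythmic by limma in either genotype. At an unadjusted p under 0.05 there were 0 in WT and 2 in KO, where 13.8% of all genes had such a p. No mean difference passed, with 2 genes at an unadjusted p under 0.05, against 25.1% of all genes. Both were higher in KO, Fos by 0.45 ± 0.17 (limma, adjusted p = 0.11) and Jun by 0.2 ± 0.07 (0.0899). The summed linear level of the 11 genes ranged from 3320 to 4183 in WT and from 3334 to 4936 in KO.

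Over the 12 group means the gene whose course was most like that of Hsph1 was Ahsa2, a relative of the HSP90 activator Ahsa1, with r = 0.96. Dnaja1 followed at 0.94, then Ube2f (0.94), Syvn1 (0.93), Cacybp (0.93), a member of the chaperone list, and Cltb (0.92). The most opposite were Mrnip (-0.97), Pde7b (-0.96), Gm11992 (-0.95), Yeats4 (-0.95) and Mat2b (-0.94).

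For Cirbp the most similar were Pik3c3 (0.95), Letmd1, Xpa, Slc49a4 and Sat2 (0.94 each). The most opposite of all was Chordc1 (-0.94), followed by 2310081J21Rik (-0.93), Kif12 (-0.93), Pcyt1a (-0.93) and Galnt14 (-0.91). The 12 group means share the times of day, so these correlations describe a likeness of course and carry no test.

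Several members are read by more than 1 probe set. Processed copies of these genes elsewhere in the genome could share their probes. A brightest set may then read such a copy rather than the named gene, which was not checked. Single values of these genes are therefore uncertain. The 3 sets of Hsp90aa1 correlated at 0.943 or more, and the other 2 were rhythmic in WT as well (limma, adjusted p = 0.00175 and 0.00698). Amplitudes of these 2 sets were 0.3 and 0.28 in WT, and 0.19 and 0.22 in KO. The 3 sets of Rbm3 correlated at 0.99 or more and were all rhythmic in WT. Its other sets had amplitudes of 0.36 and 0.35 in WT, and 0.23 and 0.22 in KO. The second set of Dnaja1 had an amplitude of 0.26 in WT, with a limma adjusted p of 0.156, and of 0.22 in KO. Beside the brightest sets, the loss of amplitude in KO was thus smaller in the other sets of Hsp90aa1 and Dnaja1. It was a little larger in the other sets of Rbm3. The 2 sets of Hspd1 correlated at 0.702 and differed in the KO peak, at ZT16.2 and ZT7.30. Hsph1 and Cirbp have 1 set each.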

How the data were processed

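Values are the deposited log2 expression values of the series, which the authors made with RMA per the submitters' processing notes. Software versions were not given in the sources used here. Of 21789 probe sets with 1 gene symbol in the platform annotation, those above the 30th percentile of the mean were kept, with the brightest per gene (13967 genes). limma 3.58.1 (R 4.3.3) fitted a mean, cosine and sine of 24 h per genotype to all 22 arrays, with 16 residual degrees of freedom. Single times were tested on the 12 group means (10 residual degrees of freedom), with a lone pool taken to be as variable as the rest. P-values were adjusted by Benjamini-Hochberg over all genes at a threshold of 0.05. Pools are of different mice only as far as the labels say, so p-values measure the spread between pools. Correlations used 100000 permutations. Members and lists were chosen with earlier results of these data known. The named genes are the members, at most 8 rhythmic genes of the chaperone list by amplitude, at most 4 per other call, and the 5 most and least alike to Hsph1 and Cirbp. The scripts were tested on simulated data. Alternatives covered filters, scaling, the replicate block, eBayes options, array weights and left-out arrays.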

Additional observations from a re-analysis of the deposited data

How the results depend on the processing

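The count of rhythmic members in WT, 5, fell to 3 with a free level at each time, to 2 with pool 1 arrays only and to 0 with pool 2 arrays only, which hold fewer samples. Leaving out each array gave 4 to 5. The KO count of 0 became 3 with a filter at the 50th percentile, 2 with array medians subtracted, 1 with the replicate block (Rbm3, limma adjusted p = 0.0252), 4 with trended and robust eBayes, 4 with array weights and 3 with KO arrays alone, and leaving out each array gave 0 to 2. Some groups shared a difference between pool 1 and pool 2. The correlation of pool deviations between groups ranged from -0.41 to 0.55, with 25 of 45 pairs over 0.1. The main fit took no account of the pool number, and what lies behind the shared difference was not tested. The replicate block changed no other count of members. The mean difference count of 0 became 1 with trended and robust eBayes. The 9 rhythmic chaperone genes became 5 with array medians subtracted, 1 with pool 1 only, 0 with pool 2 only and 5 with WT arrays alone, and 5 to 9 with each array left out. The immediate early count was 0 to 1 (without KO ZT0 pool 1). The 2 correlated pairs became 1 with array medians subtracted and 0 to 3 with each array left out. The gap between heat shock and cold-inducible peaks was 6.66 h in WT with pool 2 only, and in KO 9.16 h with pool 1 only and 5.41 h with pool 2 only, and 8.45 to 10 h in WT and 6.86 to 7.86 h in KO with each array left out. Dnaja1 also lost its WT call with array medians subtracted (limma adjusted p = 0.0797), and with WT arrays alone (0.135). With a free level at each time Dnaja1 (0.101) and Rbm3 (0.089) lost theirs. The smaller KO amplitude of Cirbp turned with pool 2 arrays only (0.372 in WT, 0.402 in KO). Those of Hspa8 and Hspd1, not rhythmic in either genotype, turned too. For Hspa8 this was with array medians subtracted (0.131, 0.134) and without KO ZT0 pool 1 (0.148, 0.162). For Hspd1 it was with pool 1 arrays only (0.0298 in WT, 0.0373 in KO). The cause of these changes was not tested. The number of arrays, 1 or 2 per time, limits the precision.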
